A study of Sus scrofa with 36 samples.

Results

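The genes described here are 10 markers of the thyroid follicular cell, PAX8, NKX2-1, FOXE1, HHEX, CDH16, CDH1, EPCAM, KRT8, KRT18 and CLU, measured in the thyroid gland of 36 castrated growing pigs. Probes were taken by name, when the gene name in the array files was the member or when the probe's description held the member in round brackets. This gave 32 probes for 8 of the 10 genes, out of 60305 probes on the array. EPCAM had 18 of them, KRT8 had 4, CDH1 had 3, HHEX and KRT18 had 2 each, and PAX8, CDH16 and CLU had 1 each. NKX2-1 and FOXE1 had none by name. The array carries them under gene numbers, with 2 probes for NKX2-1 and 1 for FOXE1, and 3 further probes of members (1 each for EPCAM, CLU and HHEX) were found by an accession or by a shared sequence. These 6 probes were kept apart from all counts over the 32. All 32 probes, and both NKX2-1 probes and the FOXE1 probe, were bright enough to be tested.

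The pigs were Creole (CR), Large White (LW) or a cross of both breeds (F1), and each breed was sampled at 24 °C and at 30 °C as labelled, with 6 pigs in each of the 6 groups and 1 array per pig. The protocol given with the samples describes the hot condition as 5 days at 32 °C, with the 24 °C pigs slaughtered before the rise, so temperature cannot be told apart from the age and the day of slaughter. Litter, pen, sire and dam are not in the labels, so littermates entered as independent pigs, and breed cannot be told apart from the few families that stand for it. Every value below is the log2 of a probe's intensity after quantile normalization, a change is a difference of such values, and a level of 1 probe cannot be set against that of another. A probe was called when limma's test gave an adjusted p under 0.05 over the 46222 tested probes. The comparison of temperatures shares its pigs with that of breeds, and the comparisons of breeds share groups with each other.

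Follicular cells form the closed epithelial sacs of the thyroid in which thyroglobulin is stored and iodinated. Their identity rests on the joint presence of the paired-box factor PAX8, the homeobox factors NKX2-1 and HHEX and the forkhead factor FOXE1, which together drive thyroid development and the genes of hormone synthesis. The polarized sheet is held by cadherins and by the adhesion molecule EPCAM, is braced by the keratin pair KRT8 and KRT18, and secretes the chaperone CLU. CDH16 is a cadherin of kidney and thyroid epithelium. The tissue was ground whole, so a lower level in bulk RNA can come from fewer follicular cells or from less RNA per cell, and these cannot be told apart.

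The array probes are 60-base sequences, and the ones on which the results below turn are given here in the orientation of the files, 5′ to 3′. The first set names the transcription factors, 2 of which have no name in the files. Capitals mark a stretch of the homeobox in HHEX and the stop codon in the NKX2-1 and FOXE1 probes that hold one. The second NKX2-1 probe shares no run over 5 bases with the first.
HHEX A_72_P414318: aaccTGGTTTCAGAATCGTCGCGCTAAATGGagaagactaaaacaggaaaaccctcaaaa
NKX2-1 A_72_P525122: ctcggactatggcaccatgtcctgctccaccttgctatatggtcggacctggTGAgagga
NKX2-1 A_72_P414273: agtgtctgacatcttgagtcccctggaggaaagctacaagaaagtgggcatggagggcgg
FOXE1 A_72_P494801: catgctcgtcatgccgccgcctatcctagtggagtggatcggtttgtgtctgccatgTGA

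The next set gives the probes whose levels differed between breeds, with a KRT8 probe that did not, for contrast. For CDH16 the last 30 bases are shown with an AATAAA in capitals, for CLU and the EPCAM probe the first 30, and for KRT8 both probes whole, the second with the last codon and the stop codon in capitals.
CDH16 A_72_P357163: tgttcaatAATAAAgcctcagagaactggg
CLU A_72_P185296: catggatgcccaccttcatagaattcccta
EPCAM A_72_P739864: gactactgtcttacccatttgtgattaaat
KRT8 A_72_P632350: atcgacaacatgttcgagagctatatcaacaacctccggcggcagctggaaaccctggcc
KRT8 A_72_P402733: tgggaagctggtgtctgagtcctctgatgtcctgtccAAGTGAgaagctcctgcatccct

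No change of the follicular cell markers with heat was resolved with 18 pigs at each temperature. None of the 32 probes was called, beside 1.18% of all tested probes. The changes (30 minus 24 °C, averaged over breeds) ran from -0.03 to 0.33 with a median of 0.09, against a median of 0.01 over all tested probes. Of the 32, 31 were positive, as were 55.6% of all tested probes, but 18 of those 31 belong to EPCAM and are not independent. The lowest adjusted p was 0.51, and 1 probe had an unadjusted p under 0.05.

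Among the transcription factors, NKX2-1 lay between 11.85 and 12.27 in the pigs at 24 °C, with a median of 12.01, and between 11.79 and 12.25 with the same median at 30 °C. The groups overlapped over almost their whole range, and the change was -0.02 (95% interval -0.11 to 0.07, limma adjusted p = 0.94). FOXE1 changed by -0.06 (-0.20 to 0.09, adjusted p = 0.89), PAX8 by 0.12 (-0.04 to 0.28, adjusted p = 0.69) and HHEX by 0.16 (-0.03 to 0.34, adjusted p = 0.63). The second NKX2-1 probe, A_72_P414273, changed by -0.12 (-0.24 to -0.01) and its adjusted p was 0.47.

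The adhesion and cytoskeletal genes did not pass the test either. CDH16 changed by 0.01 (-0.13 to 0.15, adjusted p = 0.99), CDH1, the classical epithelial cadherin, by -0.03 (-0.12 to 0.05, adjusted p = 0.91), KRT8 by 0.05 (-0.06 to 0.16, adjusted p = 0.87) and KRT18 by 0.04 (-0.09 to 0.16, adjusted p = 0.93). EPCAM was positive on all 18 probes, and its brightest probe changed by 0.09 (-0.01 to 0.20, adjusted p = 0.60), with 15 of the 18 pigs at 30 °C above the 24 °C mean of their breed. CLU lay between 13.72 and 14.85 at 24 °C, with a median of 14.46, and between 13.94 and 15.10 at 30 °C, with a median of 14.59. These ranges overlap widely, and the change of 0.16 (0.00 to 0.32) had an unadjusted p of 0.048 and an adjusted p of 0.51, so it was not called. A further CLU probe, found by its accession, changed by 0.13 (adjusted p = 0.48).

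Taken breed by breed, again none of the 32 probes was called, where the share of all tested probes called was 0.387% for CR, 0.383% for F1 and 0 for LW pigs. In CR the change of CLU was 0.34 (0.06 to 0.62, adjusted p = 0.71) and that of PAX8 was 0.26 (-0.02 to 0.54, adjusted p = 0.90). In F1, EPCAM probe A_72_P762916 changed by 0.76 (0.03 to 1.48, adjusted p = 0.45). No probe on the array passed the test of an interaction of breed and temperature, and 1 of the 32, CDH1 probe O12785, had an unadjusted p under 0.05 (adjusted p = 1.00). Within breed the intervals are wider than over all pigs. The interval of CLU in CR lay above 0 (limma unadjusted p = 0.019), but the change did not pass the adjustment over all tested probes. The CLU probe found by its accession changed by 0.27 in CR (0.05 to 0.48, adjusted p = 0.67) and was not called either.

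**Figure D1:**
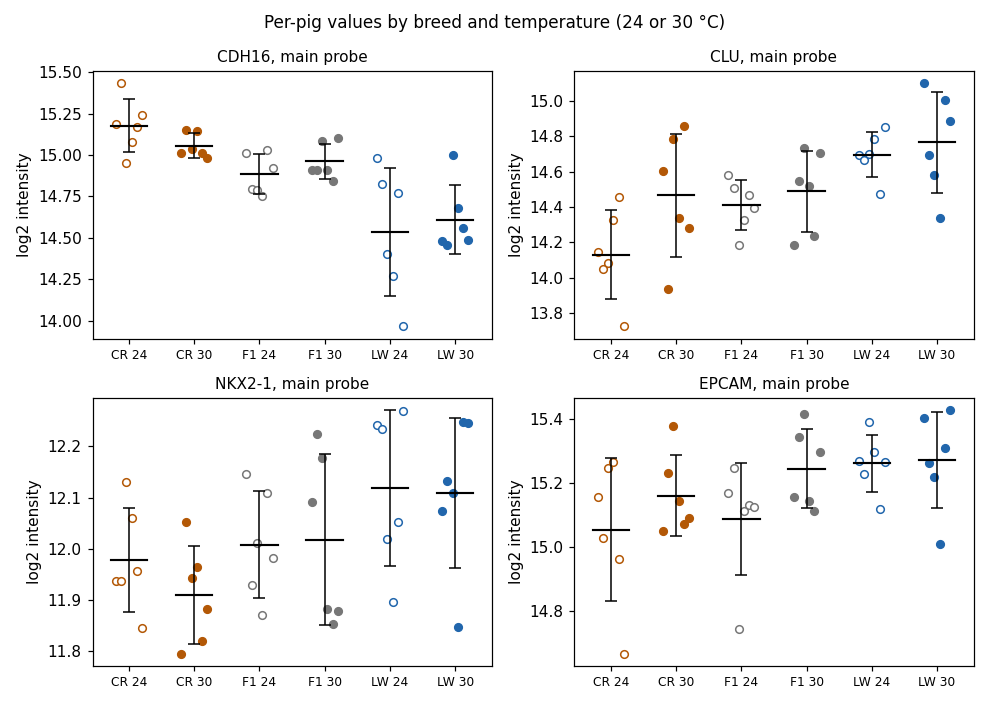
Log2 normalized intensity of the main probe of CDH16, CLU, NKX2-1 and EPCAM in each of the 36 pigs, by breed and temperature, with open points at 24 °C, filled points at 30 °C and bars for the mean ± SD of 6 pigs. CDH16 steps down from CR over F1 to LW, where 10 of 12 LW pigs lie below every CR pig, and the 24 and 30 °C points overlap in each breed.

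Breed, unlike temperature, separated some of these genes. Between LW and CR, 4 of the 32 probes were called (12.5%), beside 12.9% of all tested probes (7.17% higher and 5.73% lower in LW), so the share called is near that of the array. CDH16 was lower in LW, and CLU, 1 of the 18 EPCAM probes and 1 of the 4 KRT8 probes were higher. Outside the 32, both NKX2-1 probes were called higher in LW.

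CDH16 showed the clearest difference. It rests on 1 probe, so no other probe of the gene could be set beside it. In CR pigs it lay between 14.95 and 15.44 with a median of 15.11, in F1 pigs between 14.75 and 15.10 with a median of 14.91, and in LW pigs between 13.97 and 15.00 with a median of 14.52. All 12 LW pigs lay below the CR mean, and 10 of them lay below every CR pig. The change was -0.54 (SE 0.08, 95% interval -0.71 to -0.38, limma adjusted p = 2.18e-05), a level in LW of 0.686 times that in CR, and 2.97% of all tested probes differed by at least as much. The difference was -0.64 at 24 °C and -0.45 at 30 °C, and it was negative on all 5 slides, from -0.76 to -0.30. A slide held 2 or 3 LW pigs and 1 to 3 CR pigs, so values by slide, here and below, rest on few pigs. At 24 °C the LW pigs ran from 13.97 to 14.98 and the CR pigs from 14.95 to 15.44, and at 30 °C from 14.46 to 15.00 and from 14.98 to 15.15.

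CDH16 was also the only member probe called between F1 and LW, at 1 of the 32 beside 1.99% of all tested probes. F1 pigs exceeded LW pigs by 0.35 (0.18 to 0.52, adjusted p = 0.016), or 1.27-fold. Against CR they differed by -0.20 (-0.36 to -0.03, adjusted p = 0.20), and against the mean of both parent breeds by 0.08 (-0.07 to 0.22, adjusted p = 0.79). The median of the cross thus lay between those of its parent breeds, and only its distance from LW passed the test. No member probe was called between F1 and CR, beside 3.38% of all tested probes, or between F1 and the parental mean, beside 0.439%.

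CLU, also called clusterin, a secreted chaperone, ran the other way. It lay between 13.72 and 14.86 in CR with a median of 14.30, between 14.18 and 14.73 in F1 with a median of 14.49, and between 14.34 and 15.10 in LW with a median of 14.70. All 12 LW pigs were above the CR mean, but 9 of them lay within the range of the CR pigs. The change from CR to LW was 0.43 (SE 0.10, 0.24 to 0.63, adjusted p = 0.0024), or 1.35-fold, and it was 0.57 at 24 °C and 0.30 at 30 °C. It was positive on all 5 slides, at 0.06 on slide 3 and from 0.38 to 0.63 on the others. F1 pigs differed from LW by -0.28 (adjusted p = 0.14) and from CR by 0.15 (adjusted p = 0.45).

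The size of the CLU difference depended on the probe. The CLU probe found by its accession differed between LW and CR by 0.11 (-0.05 to 0.26, adjusted p = 0.41) and was not called, although both CLU probes followed each other among pigs (r = 0.87 over 36 pigs, group means removed). The accession probe exceeded the named one by 2.94 ± 0.12 in CR and by 2.61 ± 0.12 in LW (SD, n = 12), which is -0.33 in LW relative to CR, and all 12 LW pigs lay below the CR mean of that difference. The same quantity was taken for the further probes of NKX2-1, HHEX, CDH1, KRT8 and KRT18, against the gene's main probe, as a description with no test. The EPCAM probes were not set against their main probe in this way. It was 0.23 for the second NKX2-1 probe, 0.26 for KRT8 probe A_72_P632350 and 0.15 for KRT18 probe O242. It ran from -0.06 to 0.06 for the HHEX, CDH1 and other KRT8 probes. The CDH1 probes nevertheless followed each other poorly among pigs (r from -0.16 to 0.46, group means removed). The further CDH1 probes, A_72_P331483 and O12785, were dim, with a mean log2 of 6.72 and 6.17. The sequence of O12785 matches the coding strand of CDH1 only as its reverse complement, so this probe may not report CDH1 mRNA. Between the main probe and A_72_P331483, r was -0.08. Probes that carry the name of 1 gene thus gave breed differences of different size in CLU, NKX2-1, KRT8 and KRT18.

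NKX2-1 was higher in LW on both of its probes. The main probe lay between 11.79 and 12.13 in CR with a median of 11.94 and between 11.85 and 12.27 in LW with a median of 12.12, and 10 of 12 LW pigs were above the CR mean. Its change was 0.17 (0.06 to 0.28, adjusted p = 0.031), or 1.13-fold, and it was positive on all 5 slides, from 0.08 to 0.28. The 0.28 came from slide 5, which held 1 CR pig. The call was lost under both scalings to the 75th percentile (0.15, adjusted p = 0.071 and 0.11). The second probe, A_72_P414273, lay between 8.03 and 8.54 in CR and between 8.33 and 8.96 in LW, with 11 of 12 LW pigs above every CR pig. It changed by 0.40 (0.25 to 0.54, adjusted p = 1.67e-04). F1 lay between its parents on both probes and was called against neither.

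The other transcription factors did not pass the test between LW and CR, though all had positive changes. FOXE1 differed by 0.20 (0.03 to 0.38, adjusted p = 0.12), PAX8 by 0.18 (-0.02 to 0.37, adjusted p = 0.26) and HHEX by 0.15 (-0.08 to 0.38, adjusted p = 0.44). The median of PAX8 was 11.25 for CR, 11.36 for F1 and 11.50 for LW pigs, with 11 of 12 LW pigs inside the CR range. The 0.17 of the main NKX2-1 probe is inside each of these intervals, and the 0.40 of its second probe is above them.

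Among the remaining adhesion and keratin genes no main probe was called. CDH1 differed by -0.05 (-0.15 to 0.06, adjusted p = 0.64), with medians of 12.20 in CR and 12.14 in both F1 and LW. KRT18 differed by -0.16 (-0.32 to -0.01, adjusted p = 0.16) and the main KRT8 probe by 0.04 (-0.10 to 0.18, adjusted p = 0.76). KRT8 probe A_72_P632350, which was called, differed by 0.31 (0.10 to 0.52, adjusted p = 0.043), with a median of 11.88 for CR, 12.20 for F1 and 12.10 for LW pigs. This call was lost under 5 of 10 other settings (adjusted p up to 0.090). The gene's 3 other probes were not called, and 1 of them carries the same 60 bases as the main probe.

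**Figure D2:**
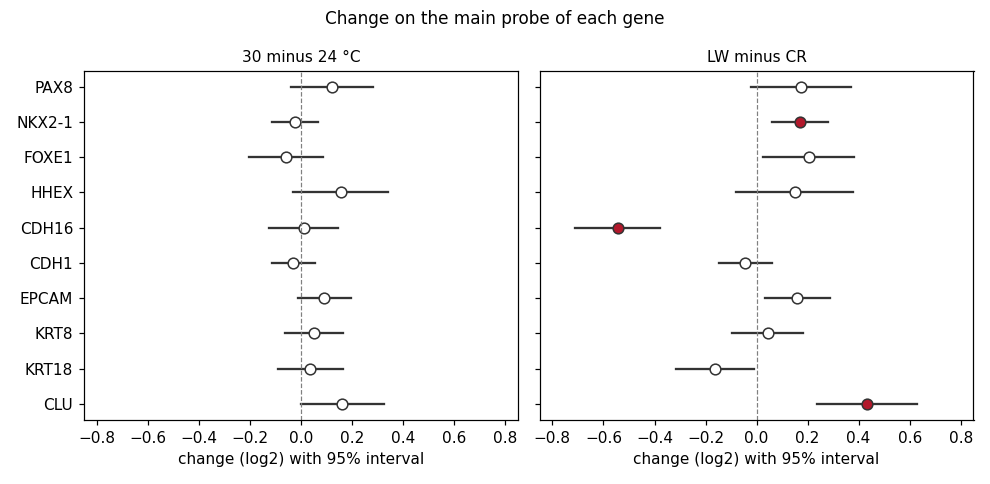
Change of the main probe of each of the 10 genes on the log2 scale, with its 95% interval, for heat (30 minus 24 °C) and for LW minus CR; red marks probes called at an adjusted p under 0.05. No heat change is called, the CLU interval starting at 0.00, and CDH16 at -0.54, CLU at 0.43 and NKX2-1 at 0.17 are called between breeds.

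EPCAM, a homophilic adhesion molecule of simple epithelia, was the gene with most probes. All 18 were higher in LW than in CR, from 0.08 to 0.60 with a median of 0.15. Only A_72_P739864 was called, at 0.25 (0.08 to 0.42, adjusted p = 0.040), with medians of 14.77 in CR and 14.97 in LW and with 11 of 12 LW pigs inside the CR range, and this call was lost under 3 of 10 other settings (adjusted p up to 0.16). The brightest probe differed by 0.16 (0.03 to 0.29, adjusted p = 0.092). Of the 18 probes, 13 share a run of at least 20 bases with another, in 18 of 153 pairs. Across pigs, with group means removed, the pairs correlated between 0.08 and 0.96 with a median of 0.80. Overlap in sequence did not go with likeness in every pair, since the lowest r, 0.08, was between A_72_P737465 and A_72_P759506, which share 35 bases.

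One EPCAM probe stood apart in its spread. A_72_P762916 ran from 11.11 to 14.67 among the 36 pigs, with an SD within groups of 0.65 where the other 17 probes had between 0.13 and 0.30. Its lowest value belonged to a CR pig at 24 °C. It shares a run of 35 bases with A_72_P730853, whose values ran from 14.29 to 15.39 in the same pigs. A stretch with the same flanks in both probes is given here, and capitals mark the 3 bases that hold the differences between them.
EPCAM A_72_P762916: cataggGAAtcaatgcataacacc
EPCAM A_72_P730853: cataggAACtcaatgcataacacc
The 0.76 change of A_72_P762916 with heat in F1 and its 0.60 between LW and CR (0.09 to 1.12, adjusted p = 0.12) are the largest of any EPCAM probe, and neither was called. Its difference from A_72_P730853 was -1.32 ± 0.71 in CR and -0.91 ± 0.16 in LW (SD, n = 12), or 0.41 between the breeds, and 0.24 without the CR pig with the lowest value. For scale, where 2 probes carried identical sequences (a KRT8 pair and an HHEX pair), the SD of their difference over 36 arrays was 0.06.

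**Figure D3:**
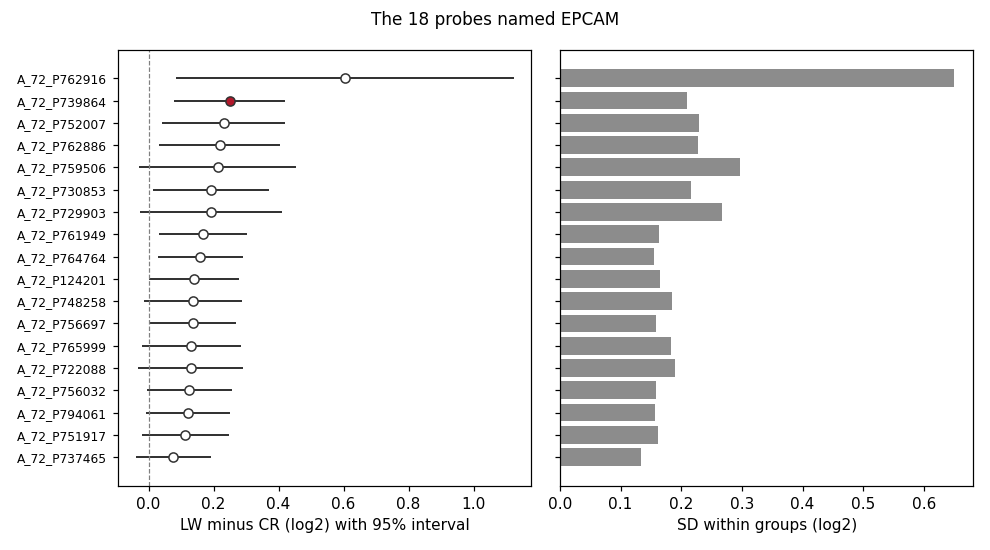
The 18 EPCAM probes, with the change from CR to LW and its 95% interval on the log2 scale, and the SD of each probe's log2 values within groups. All 18 changes are positive, 1 is called, and probe A_72_P762916 has an SD of 0.65 against 0.13 to 0.30 in the others.

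Beyond group differences, the genes could vary together from pig to pig. Correlations were taken over the 36 pigs after the mean of each of the 6 groups was removed, for all 28 pairs of the 8 genes, with two-sided permutation p-values adjusted over the 28. KRT8 and KRT18, whose proteins pair into one filament, gave r = 0.76 (rho 0.74, adjusted p = 0.00028 for r and 0.00084 for rho). Without the 2 pigs farthest from the median of KRT8, r was 0.74, and within slides 1 to 4 it ran from 0.67 to 0.86. Among 11912 genes, KRT18 took place 3 in the ranking by r with KRT8. On the same values, KRT8 had r = -0.48 and KRT18 r = -0.41 with the mean of 11 C cell markers, and both had 0.34 with the mean of 8 adipocyte markers. The part of these cells in the relation was not tested.

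A pair of further relations had an adjusted p under 0.05. EPCAM and CLU gave r = 0.54 (adjusted p = 0.020, rho 0.51 with adjusted p = 0.040), from 0.51 to 0.68 within slides. Without 2 pigs it was 0.43, and the relation then has an unadjusted p of 0.034. PAX8 and EPCAM gave r = 0.48 (adjusted p = 0.040, rho 0.49 with adjusted p = 0.040) and 0.53 without 2 pigs. Within slides r ran from -0.17 to 0.84. With 8 pigs per slide, this spread cannot tell whether the relation differs between slides. CDH16 had no such relation with any gene, its highest r being 0.39 with KRT8 (adjusted p = 0.077).

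With NKX2-1 and FOXE1 added, 45 pairs were tested and 6 had an adjusted p under 0.05. The new ones were NKX2-1 with FOXE1 at r = 0.61 (adjusted p = 0.011, rho 0.63, 0.53 without 2 pigs, 0.25 to 0.79 within slides), PAX8 with FOXE1 at 0.50 (adjusted p = 0.032, from -0.44 to 0.55 within slides) and NKX2-1 with EPCAM at 0.46 (adjusted p = 0.032, from 0.23 to 0.54 within slides). For the last of these, r fell to 0.36 without 2 pigs. HHEX was in none of the 6 pairs, and its r with PAX8 was 0.40 (adjusted p = 0.14 over the 28).

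**Figure D4:**
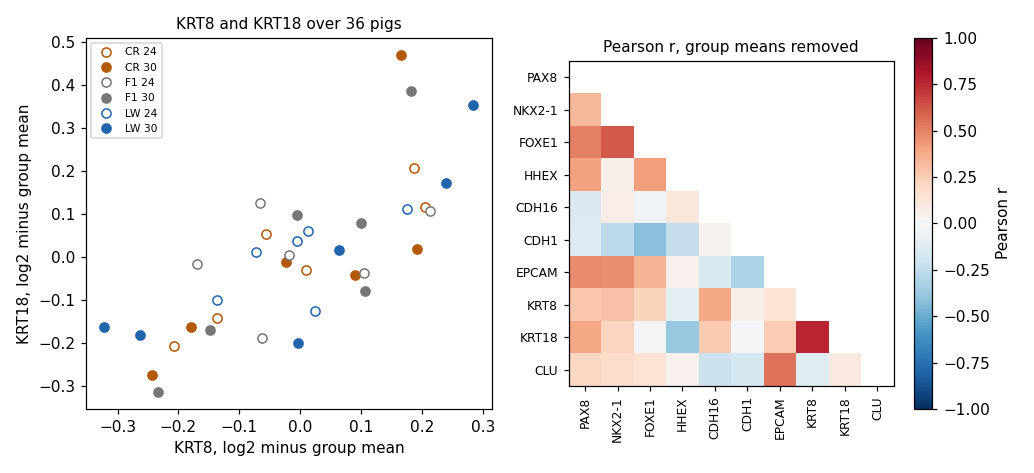
KRT8 against KRT18 in 36 pigs, as log2 values minus the mean of the pig's group, and Pearson's r for every pair of the 10 genes on the same values. KRT8 and KRT18 give r = 0.76, the highest of the 45 pairs, and NKX2-1 with FOXE1 gives 0.61.

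The genes whose pig-to-pig pattern was most like each member, by Pearson's r of the same values among 11912 genes, were not other members. They were E2F6 (0.73) for PAX8, SALL4 (0.74) and RILPL2 (0.73) for NKX2-1, Mum1 (0.78) and FKBP8 (0.70) for FOXE1, and ZNF292 (0.78) and PCF11 (0.75) for HHEX. For the adhesion genes they were C19orf51 (0.59) and SIL1 (0.59) for CDH16, SMN1 (0.69) and TCHHL1 (0.69) for CDH1, and TAF3 (0.66) and IL1RAPL1 (0.65) for EPCAM. For the rest they were PGGT1B (0.77) and c4orf33 (0.77) for KRT8, GP36B (0.82) and BSPRY (0.81) for KRT18, and ATL1 (0.71) and TUBA4A (0.71) for CLU. These are given as a description, with no test, and all points share the same arrays. CDH16 had the weakest neighbours of the 10.

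The genes of hormone synthesis were read beside the markers. With heat, TG, the thyroglobulin gene, changed by -0.01 (adjusted p = 0.99), and TSHR, the thyrotropin receptor gene, by 0.10 (adjusted p = 0.77). Among pigs, with group means removed, r of TG with the members ran from -0.47 (EPCAM) to 0.16 (CDH1). It was -0.42 with FOXE1, -0.31 with NKX2-1 and -0.15 with PAX8. For TSHR it ran from -0.22 (CLU) to 0.05 (PAX8). These values are a description with no test. Of 14 tested genes listed under hormone synthesis none was called with heat. Of these 1, PDIA4, was lower in LW than in CR by 0.40 on the log2 scale (adjusted p = 0.0060). Of 31 tested genes of epithelial adhesion, 4 were higher in LW and 4 were lower, with a median change of 0.00, among them CLDN3 at 0.37 and PKP2 at -0.33. Of 15 genes listed as other thyroid factors 1, SALL4, was higher, at 0.32 (adjusted p = 0.014), and of 2 other simple keratins none was called. Of 7 mesenchymal genes 1, ZEB1, was higher in LW, at 0.43 (adjusted p = 2.13e-04). Of 12 partners of clusterin 3 were higher and 2 lower. Over all genes by main probe, 13.3% were called in this comparison.

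Markers of other cell types also moved between the breeds, where 13.3% of all genes by main probe were called between LW and CR. A list of a few genes with none called cannot be told apart from that share. Of 8 adipocyte markers 5 were lower in LW, with ADIPOQ at -1.21 and PLIN1 at -1.20, and the mean of the list ran from 10.20 to 11.44 in CR and from 10.07 to 10.80 in LW. Of 10 tested endothelial markers 4 were higher in LW, with KDR at 0.73, and the list's mean ran from 11.35 to 11.71 in CR and from 11.58 to 11.93 in LW. None of 11 tested C cell markers, 9 fibroblast markers, 4 parathyroid markers or 6 thymocyte markers was called between LW and CR, nor was any of 5 thymic epithelial, 5 red cell or 4 B cell markers. Of 6 myeloid markers LYZ was lower in LW, at -0.84, and of 9 muscle markers ACTA1 was higher, at 0.22. CALCA, the C cell hormone gene, had no tested probe, and PTH was well above background on 21 of 36 arrays. Within groups, CDH16 had r = 0.04 with the adipocyte mean and 0.08 with the endothelial mean over 36 pigs. CLU had -0.33 and -0.35 with these and 0.51 with the C cell mean. Over all lists of cell markers, r ran from -0.26 (C cells) to 0.31 (B cells) for CDH16. For NKX2-1 it ran from -0.22 (myeloid cells) to 0.22 (red cells). Between F1 and LW, 4 of 8 adipocyte markers were called higher in F1 and 1 of 10 endothelial markers lower. No marker of the other cell types was called there, beside 1.97% of all genes by main probe. The part of these cell types in the breed differences of CDH16, CLU and NKX2-1 was not tested. With heat, 1.21% of all genes by main probe were called. The only gene called with heat in any of these lists was HBB, the beta-globin gene of red cells, at -1.004 (adjusted p = 0.0014).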

How the data were processed

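The deposited scanner files hold, per the file headers, pixel intensity of each spot on 36 one-colour Agilent arrays, written by Agilent Feature Extraction 10.10.1.1 with no scaling between arrays. The authors quantile-normalized the median intensity without background subtraction and deposited log2 values of 46097 probes. Here the same steps were repeated on the scanner intensities, and the result differed from the deposited log2 values by a median of 0.0056. Control spots (1319 per array) were dropped, and 106 non-uniform spots became missing values. Arrays have no read depth: the share of probes well above background was 72.8% to 80.3% per array, and the number of arrays limits the precision.

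A probe was tested when 5 or more of the 6 arrays in any group had its spot well above background. Tests used limma 3.58.1 in R 4.3.3 with breed and temperature (for breeds and overall heat) or group means, two-sided, Benjamini-Hochberg adjusted over all tested probes; the study's random terms for pen, day, sire and dam are not in the labels. Correlations used permutation of pigs within groups. The main probe of a gene is its brightest tested probe among those found by name. For genes with none by name, it is the brightest of those found by gene number. The CLU probe found by its accession was brighter than the main CLU probe (mean level 17.26 against 14.49). Figures, settings and correlations for CLU therefore rest on the dimmer, named probe. Scripts were tested on simulated data.

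The members and the gene lists were chosen with earlier results of these data known. Named were all members, TG, TSHR, listed genes called with heat, and the 2 genes nearest each member by r, of which some are not reported here; the other genes were named after their values were seen. Probe names came from the files, updated by symbol, gene number and accession with a RefSeq gene table, and the files give no genome positions. Alternatives were other intensities and scalings, slide and slide position as terms, array weights, other fits and filters, and leaving out each pig. Slides held several groups each.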

Additional observations from a re-analysis of the deposited data

Results flagged for a closer look

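Of 60 groups of 6 pigs tested for a sample standing apart, over the main probes of the 10 genes, 1 was flagged, where chance would flag about 1 in 20. It was EPCAM in F1 pigs at 24 °C, in which replicate 3 lay at 14.74 and the next lowest pig at 15.11, a gap of 0.737 of the group's range.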

How the results depend on the processing

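The calls of CDH16 and CLU between LW and CR, of CDH16 between F1 and LW, and of the second NKX2-1 probe between LW and CR held under all 10 other settings and with any of the 36 pigs left out. CDH16 between LW and CR ran from -0.57 to -0.53 over these settings and from -0.58 to -0.49 over left-out pigs, and CLU from 0.38 to 0.46 and from 0.39 to 0.48. None of the 32 probes was called with heat, overall or within a breed, under any setting or with any pig left out. The count of the 32 probes called between LW and CR was 4, and it was 2 when the median intensity was scaled by each array's 75th percentile, 2 with the processed signal and 2 with slide position as a term. It ran from 2 to 7 over left-out pigs, with 2 without LW_24 replicate 1 or 3, CR_24 replicate 6 or CR_30 replicate 2, 5 or 6, and 7 without CR_30 replicate 3.

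The main NKX2-1 probe was not called between LW and CR in 8 of 36 leave-outs, KRT8 probe A_72_P632350 in 13 and EPCAM probe A_72_P739864 in 12. The main EPCAM probe was called only without LW_30 replicate 4 (0.19, adjusted p = 0.039). The change of CDH16 with heat, which was not called, was -0.000158 with slide position as a term and ran from -0.028 (without LW_24 replicate 6) to 0.036 (without LW_24 replicate 1) over left-out pigs. The count of relations with an adjusted p under 0.05 was 3, and it was 5 under that scaling of the median intensity, 6 with the processed signal, and 6 with NKX2-1 and FOXE1 included, a setting chosen after seeing the data. NKX2-1 with EPCAM gave r = 0.21 (adjusted p = 0.46) with the processed signal. The cause of these moves was not tested. Over all probes, the count called with heat within F1 was 177, and it was 18 with slide position as a term and 0 when only the F1 pigs were fitted. The count for F1 against the parental mean was 203, and 399 with array weights. No paired analysis was possible because the labels give no replicate numbers shared between groups. Each group holds 6 arrays and no spot was saturated, and the families behind each breed are few and not labelled.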
